A study of Mus musculus with 7 samples.

Results

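The genes described here are 8 lysosomal genes outside the cathepsin family: the glycosidases Hexa and Gla, the lipid handlers Lipa, Npc2 and Psap, the progranulin gene Grn, and the membrane glycoproteins Lamp1 and Lamp2. They were chosen as every probe set of the array whose platform annotation gives a single symbol equal to one of these names. The rule took 18 probe sets and all 8 genes, of 20380 probe sets and 12393 genes with a single symbol. Of the 18 probe sets 17 passed the filter on low signals, and all 8 genes had at least 1 that did, so that each gene was tested.

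RNA was measured with Affymetrix Murine Genome 430A arrays in whole bodies of C57BL/6 mouse embryos on embryonic day 9, of mixed sex per the labels. Adnp knockout embryos were measured on 2 arrays, Adnp heterozygous embryos on 3 and wild-type embryos on 2. Each array carried RNA pooled from 2 littermates of one genotype, so the 7 arrays stand for 14 embryos and the replicate is the pool. Yolk sac and amnion had been dissected away, and each genotype was read by PCR for Adnp, for the neomycin resistance gene or for both in yolk sac DNA. The deletion is carried by the whole embryo, not by 1 cell type. The sources used here do not give how litters were divided among the pools.

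The lysosome is an acidic organelle in which hydrolases break down material taken up by endocytosis or delivered by autophagy. Most of its soluble enzymes receive a mannose 6-phosphate tag and are carried there by receptors, and a proton pump, the vacuolar ATPase, acidifies it. TFEB and TFE3, transcription factors of the MiT family, bind an E-box, CACGTG, in many lysosomal promoters, within a longer palindrome known as the CLEAR element. In the early mouse embryo the visceral endoderm, the absorptive outer epithelium that becomes the endoderm of the yolk sac, is rich in large lysosomes and apical vacuoles.

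All values are linear MAS5 signals. The median signal was 55.5 to 57.4 over the 7 arrays, and Pearson's r between pairs of arrays, across genes that are no independent replicates, was 0.925 to 0.982. Precision throughout is limited by how few arrays there are. The only probe set that names Adnp is also annotated to Dpm1, so the deletion could not be checked here. Log2 differences are on the log2(signal + 3.8) scale, which understates changes of dim genes, and the 95% intervals and adjusted p-values come from limma in 1 fit of all 7 arrays. A gene passed the test at an adjusted p under 0.05 over 8019 genes. In knockout embryos 3.32% of these genes passed against wild type and 5.86% against heterozygous embryos, and 0% passed between heterozygous and wild-type embryos. In bulk RNA of whole bodies, fewer cells of a type and less RNA per cell cannot be told apart.

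The 250 bases before the gene start are printed below for the 3 genes that passed a test, Hexa, Lamp1 and Lamp2, and for Gla, the remaining one of the 8 whose promoter holds an E-box. The sequences are from RefSeq on GRCm38.p6, read 5′ to 3′ on the gene's own strand, and capitals mark CACGTG. Hexa lies on the plus strand at chr9:59539290-59539539, Lamp1 on the plus strand at chr8:13158911-13159160, Lamp2 on the minus strand at chrX:38456461-38456710 and Gla on the minus strand at chrX:134601006-134601255.
Hexa: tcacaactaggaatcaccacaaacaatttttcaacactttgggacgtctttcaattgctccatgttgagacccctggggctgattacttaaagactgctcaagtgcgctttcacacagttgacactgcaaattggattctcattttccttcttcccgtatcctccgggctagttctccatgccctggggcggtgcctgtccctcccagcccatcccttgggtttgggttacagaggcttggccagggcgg
Lamp1: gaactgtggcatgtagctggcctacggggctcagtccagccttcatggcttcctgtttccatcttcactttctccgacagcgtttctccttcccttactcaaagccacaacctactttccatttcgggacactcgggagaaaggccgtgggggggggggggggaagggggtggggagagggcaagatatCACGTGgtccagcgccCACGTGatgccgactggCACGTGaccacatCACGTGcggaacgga
Lamp2: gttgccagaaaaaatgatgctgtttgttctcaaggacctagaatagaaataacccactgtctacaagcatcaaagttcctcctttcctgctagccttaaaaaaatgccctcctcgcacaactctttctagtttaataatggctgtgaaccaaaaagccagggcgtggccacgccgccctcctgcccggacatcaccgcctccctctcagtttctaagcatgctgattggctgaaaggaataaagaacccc
Gla: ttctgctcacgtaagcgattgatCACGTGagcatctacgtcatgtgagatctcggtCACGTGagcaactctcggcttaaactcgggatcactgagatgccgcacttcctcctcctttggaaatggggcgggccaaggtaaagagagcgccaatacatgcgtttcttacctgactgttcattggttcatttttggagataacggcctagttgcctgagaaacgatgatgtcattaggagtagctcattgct
The Lamp1 promoter holds 4 E-boxes close to the gene start, which begin 61, 45, 28 and 15 bases before it. The Gla promoter holds 2, which begin 227 and 194 bases before the gene start, and both lie within the longer palindrome TCACGTGA. The windows of Hexa and Lamp2 hold none.

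All motifs counted here read the same on both strands. The shortest, CACGTG, lies within TCACGTGA, and the longest extends TCACGTGA by a base at each end. Windows of 300 bases, from 250 before to 50 after the gene start, were available for all 8 genes, with 2 for Psap. CACGTG was in 2 of the 9 windows, those of Lamp1 and Gla, or 22.2%, beside 7.15% of all 32851 promoter windows of the table. TCACGTGA was in 1 of the 9, that of Gla, and in 0.974% of all windows. The longest motif was in 0 of the 9, so also not in that of Gla, and in 0.326% of all windows. Of a wider set of 92 lysosomal genes, taken up further on, 71 had promoter windows. There were 84 such windows. Of these, 28.6% held CACGTG, 16.7% TCACGTGA and 2.38% the longest motif.

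Hexa, which encodes the alpha subunit of lysosomal beta-hexosaminidase, the enzyme that removes terminal N-acetylhexosamine from gangliosides and glycoproteins, was higher in knockout embryos than in both other genotypes. Of the 8 genes it had the largest difference and was the single one past the threshold against wild type. Its signal was 329.2 and 346.6 in knockout pools, 185.1, 164.2 and 134.3 in heterozygous pools, and 159.6 and 132.3 in wild-type pools. Both knockout pools lay far above the other 5, while the heterozygous and wild-type pools overlapped. The means were 337.9 ± 12.3 in knockout embryos (SD, n = 2), 161.2 ± 25.5 in heterozygous embryos (SD, n = 3) and 146.0 ± 19.3 in wild-type embryos (SD, n = 2).

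The log2 difference of Hexa between knockout and wild type was 1.20 (SE 0.17, 95% interval 0.81 to 1.58), a 2.29-fold higher signal with an adjusted p of 0.00622. It ranked 100th of 8019 genes by this difference, so that 1.23% of genes rose by more. Between knockout and heterozygous embryos it was 1.06 (interval 0.71 to 1.41), or 2.09-fold, with an adjusted p of 0.00539. These comparisons share the knockout arrays and are not independent of each other. The call against wild type was lost without wild-type pool 2 (1.06, adjusted p = 0.0648) and without knockout pool 2 (1.16, adjusted p = 0.0677). Against heterozygous embryos it was lost without knockout pool 1 (1.10, adjusted p = 0.0550) and without knockout pool 2 (1.02, adjusted p = 0.0772), and a single knockout pool then stands for its group.

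Gla encodes alpha-galactosidase A, which removes terminal galactose from globotriaosylceramide and related glycolipids and whose loss causes Fabry disease in humans. Its brighter probe set read 45.5 and 31.2 in knockout pools, 38.0, 52.7 and 34.4 in heterozygous pools, and 40.5 and 35.6 in wild-type pools. The 3 groups overlapped fully, at signals close to the filter. The log2 difference between knockout and wild type was -0.01 with a wide interval, -0.65 to 0.63 (adjusted p = 0.993), which holds changes of either sign. The second Gla probe set was under the filter and read 1.9 to 4.5 in knockout, 3.3 to 6.0 in heterozygous and 3.4 to 4.0 in wild-type pools.

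**Figure D1:**
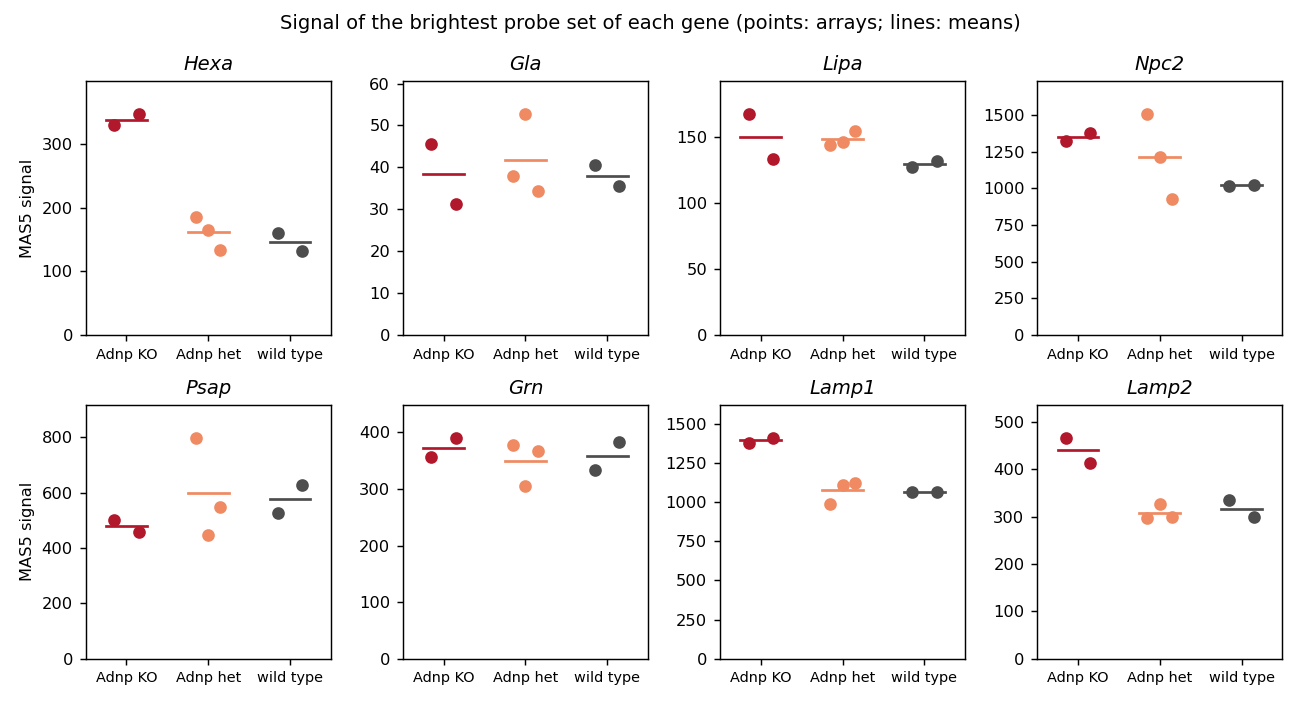
MAS5 signal (linear, vertical axis from 0) of the brightest probe set of each of the 8 genes, with 1 point per array in Adnp knockout (KO), Adnp heterozygous (het) and wild-type embryos and a line at each group mean. Both knockout arrays lie above the other 5 for Hexa, Lamp1 and Lamp2, and for the other 5 genes the knockout arrays overlap the heterozygous ones.

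Lipa, Npc2 and Psap act on lipids inside the lysosome, and 0 of these 3 genes passed the test in any comparison. On their brightest probe sets and at an unadjusted p under 0.05, Npc2 alone differed, between knockout and wild type. Lipa encodes the acid lipase that splits cholesteryl esters and triglycerides. Its brightest probe set read 167.0 and 132.9 in knockout pools, 143.6, 145.8 and 154.2 in heterozygous pools, and 127.0 and 131.5 in wild-type pools. Every knockout and heterozygous pool lay above both wild-type pools on this probe set, by little. The log2 difference between knockout and wild type was 0.20 (interval -0.15 to 0.55, adjusted p = 0.535), and between knockout and heterozygous embryos 0.01 (interval -0.30 to 0.33, adjusted p = 0.969).

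The other Lipa probe sets did not follow that pattern. Probe set 1423140_at read 37.1 and 63.8 in knockout pools, 192.3, 119.7 and 114.0 in heterozygous pools, and 70.1 and 25.7 in wild-type pools. Probe set 1423141_at read 75.7 and 77.6 in knockout pools, 104.5, 92.7 and 86.0 in heterozygous pools, and 82.1 and 78.9 in wild-type pools. On both, all 3 heterozygous pools lay above the other 4, an order shown by 3.3% of all 12528 probe sets tested. For 1423140_at the log2 difference was 1.60 between heterozygous and wild type (interval 0.73 to 2.48, adjusted p = 0.999) and -1.43 between knockout and heterozygous embryos (adjusted p = 0.0765), each short of the threshold over all probe sets. The brightest Lipa probe set has the suffix of a design that matches more than 1 transcript, and Pearson's r between pairs of the 3 Lipa probe sets was 0.036 to 0.875 over the 7 arrays.

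Npc2 encodes a small soluble protein that takes cholesterol from the lumen of the lysosome to the membrane protein NPC1. Its brightest probe set read 1321.3 and 1380.9 in knockout pools, 1506.2, 1213.8 and 931.3 in heterozygous pools, and 1017.0 and 1023.7 in wild-type pools. The knockout pools lay above both wild-type pools and within the wide span of the heterozygous ones. The log2 difference between knockout and wild type was 0.40 (interval 0.01 to 0.80, adjusted p = 0.255), and between knockout and heterozygous embryos 0.18 (interval -0.19 to 0.54, adjusted p = 0.569). On the second probe set, 1416901_at, the knockout pools lay above both other groups: 1206.4 and 1325.7 in knockout pools, 926.2, 994.9 and 840.3 in heterozygous pools, and 1036.7 and 925.6 in wild-type pools. Its log2 difference was 0.37 between knockout and wild type (adjusted p = 0.147) and 0.46 between knockout and heterozygous embryos (adjusted p = 0.0512), both short of the threshold over all probe sets. Fitted with the knockout and wild-type arrays alone, the brightest probe set of Npc2 passed (adjusted p = 0.0348).

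Psap encodes prosaposin, the precursor of the saposins, which present sphingolipids to the lysosomal hydrolases. Its brightest probe set read 502.8 and 459.1 in knockout pools, 797.8, 447.6 and 548.9 in heterozygous pools, and 527.5 and 627.2 in wild-type pools. Unlike Hexa, Psap had both knockout values below both wild-type values. The log2 difference was -0.26 (interval -0.75 to 0.23, adjusted p = 0.580) between knockout and wild type and -0.27 (interval -0.72 to 0.18, adjusted p = 0.468) between knockout and heterozygous embryos. The second Psap probe set had a log2 difference of -0.37 between knockout and wild type (adjusted p = 0.479). Its signals followed those of the first over the 7 arrays (Pearson's r 0.903), with heterozygous pool 1 the highest on both.

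Grn encodes progranulin, a secreted precursor that is taken to lysosomes and cut there into granulins. Its brightest probe set read 355.8 and 390.4 in knockout pools, 377.6, 306.2 and 367.1 in heterozygous pools, and 333.6 and 382.6 in wild-type pools. The 3 groups overlapped. The log2 difference between knockout and wild type was 0.06 (interval -0.25 to 0.37, adjusted p = 0.868) and that between knockout and heterozygous embryos 0.09 (interval -0.19 to 0.38, adjusted p = 0.714). The other Grn probe sets differed in sign between knockout and wild type, at -0.20 for 1448148_at (adjusted p = 0.583) and 0.19 for 1456567_x_at (adjusted p = 0.600), and the brightest one has a suffix that marks probes shared with other transcripts.

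Lamp1 and Lamp2 encode heavily glycosylated proteins that make up much of the protein of the lysosomal membrane, and LAMP2 also serves chaperone-mediated autophagy and the fusion of autophagosomes with lysosomes. Both were higher in knockout embryos than in heterozygous embryos, by less than Hexa. Lamp1 read 1376.3 and 1409.0 in knockout pools, 990.4, 1108.9 and 1122.5 in heterozygous pools, and 1065.7 and 1065.6 in wild-type pools. The knockout pools lay above all others, and the wild-type pools fell inside the heterozygous span. The means were 1393 ± 23.1 in knockout embryos (SD, n = 2), 1074 ± 72.7 in heterozygous embryos (SD, n = 3) and 1066 ± 0.0707 in wild-type embryos (SD, n = 2). The log2 difference of Lamp1 was 0.38 between knockout and heterozygous embryos (interval 0.17 to 0.58, 1.30-fold, adjusted p = 0.0432) and 0.38 between knockout and wild type (interval 0.16 to 0.61, adjusted p = 0.0682).

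Lamp2 is on the X chromosome and has 4 probe sets. The brightest, 1428094_at, read 466.4 and 413.1 in knockout pools, 296.9, 326.7 and 299.9 in heterozygous pools, and 334.6 and 298.6 in wild-type pools. The knockout pools again lay above all others, while heterozygous and wild-type pools overlapped. The log2 difference was 0.51 between knockout and heterozygous embryos (interval 0.25 to 0.76, 1.42-fold, adjusted p = 0.0336) and 0.47 between knockout and wild type (interval 0.19 to 0.75, adjusted p = 0.0738). Probe set 1416344_at separated the pools in the same way, with 105.8 and 122.5 in knockout pools, 74.9, 68.4 and 66.3 in heterozygous pools, and 76.6 and 76.0 in wild-type pools. Its log2 difference was 0.68 between knockout and heterozygous embryos (adjusted p = 0.0503) and 0.55 between knockout and wild type (adjusted p = 0.135). On 1416343_a_at the knockout pools, at 57.8 to 65.3, lay above the heterozygous pools, at 36.0 to 46.5, and overlapped the wild-type pools, at 45.2 to 69.1, and its log2 difference between knockout and heterozygous embryos was 0.59 (adjusted p = 0.184). All 3 groups overlapped on 1434503_s_at, which spanned 340.3 to 398.4 in knockout, 140.2 to 413.4 in heterozygous and 198.7 to 356.4 in wild-type pools.

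The calls of Lamp1 and Lamp2 against heterozygous embryos depended on single pools. Without knockout pool 1 the adjusted p was 0.201 for Lamp1 and 0.236 for Lamp2, without knockout pool 2 it was 0.244 and 0.122, without heterozygous pool 1 it was 0.0667 and 0.0652, and without heterozygous pool 3 it was 0.0666 and 0.0814. Without a wild-type pool the call of Lamp1 was lost as well (adjusted p = 0.0676 without pool 1 and 0.0678 without pool 2). Against wild type Lamp1 passed without heterozygous pool 1 (adjusted p = 0.0292).

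**Figure D2:**
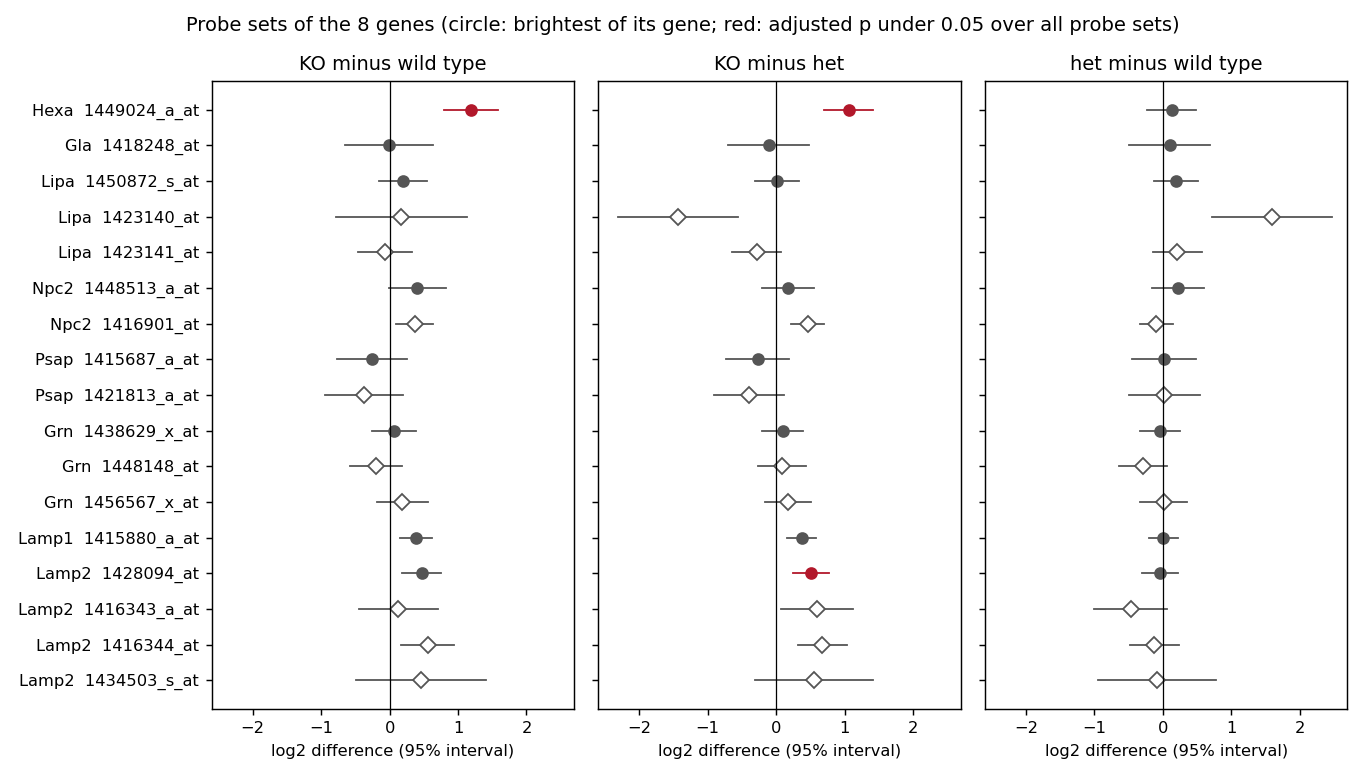
Log2 differences with 95% intervals (horizontal axis) for the 17 probe sets past the filter, in the comparisons of knockout minus wild type, knockout minus heterozygous and heterozygous minus wild type, with circles for the brightest probe set of a gene, diamonds for the others and red for an adjusted p under 0.05 over all probe sets. Hexa stands at 1.20 and 1.06 in the knockout comparisons, Lamp2 1428094_at at 0.51 against heterozygous embryos, and Lipa 1423140_at at 1.60 between heterozygous and wild type, uncalled.

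Counted over the genes, 1 of the 8 was higher in knockout than in wild-type embryos, 0 were lower and 7 did not pass, beside 3.32% of all genes called in either direction, 1.96% called higher and 1.36% called lower. Their median log2 difference was 0.29, beside -0.01 over all genes tested, and 6 of the 8 differences were positive. At an unadjusted p under 0.05 there were 4 of 8, beside 19.1% of all genes. Between knockout and heterozygous embryos 3 of the 8 were higher and 0 lower, beside 5.86% of all genes called, 3.11% called higher and 2.76% called lower, with a median of 0.14 beside -0.02 over all genes. At an unadjusted p under 0.05 there were again 3 of 8, beside 22.7% of all genes. Hexa was higher in both knockout comparisons, as were 1.58% of all genes. Both knockout pools lay above the other 5 for 3 of the 8 genes, Hexa, Lamp1 and Lamp2, and below them for 0, beside 14.2% and 16.5% of all genes. Without heterozygous pool 1 the count against wild type was 2, where 417 of all 8019 genes were called in place of 266. Against heterozygous embryos it was 1 without heterozygous pool 1 or 3, where 340 and 246 of all genes were called in place of 470. The call against wild type was lost without wild-type pool 2 or knockout pool 2. All calls against heterozygous embryos were lost without knockout pool 1 or without knockout pool 2. A single pool then stands for its group, and fewer of all genes passed as well.

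With each probe set as its own test, 1 of the 17 was called against wild type, that of Hexa (adjusted p = 0.0133), beside 2.15% of all probe sets. Against heterozygous embryos 2 of the 17 were called, those of Hexa (adjusted p = 0.0117) and Lamp2 1428094_at (adjusted p = 0.0470), beside 3.71% of all probe sets, and Lamp1 had an adjusted p of 0.0615. Both knockout pools lay above the other 5 on 5 of the 17 probe sets, beside 13.3% of all probe sets, and below them on 1, Lipa 1423141_at, beside 17% of all probe sets. Probe sets of 1 gene share its transcripts and are not independent of each other. Without knockout pool 1 or 2 all calls were lost in both comparisons, and without wild-type pool 2 the call against wild type was lost. A single pool then stands for its group. Against wild type the count was 2 without heterozygous pool 1, and against heterozygous embryos it was 1 without heterozygous pool 1 or 3. Shares of all probe sets at these settings are not given here.

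Loss of a single Adnp copy left no called difference in the 8 genes. Between heterozygous and wild-type embryos 0 of 8 passed, beside 0% of all genes, and at an unadjusted p under 0.05 the count was 0 of 8, beside 3.54% of all genes. The log2 differences were -0.04 to 0.23, with a median of 0.06 beside 0.01 over all genes. Npc2 had the highest value, 0.23 (interval -0.14 to 0.59), and Lamp2 the lowest, -0.04 (interval -0.30 to 0.22). Hexa stood at 0.13 (interval -0.22 to 0.48) and Lamp1 at 0.01 (interval -0.20 to 0.21), so no change of either was detected and rises of a size inside these intervals cannot be told from none. Widest was Gla at 0.10 with -0.48 to 0.69, followed by Psap at 0.01 with -0.43 to 0.46. For Lipa the interval was -0.13 to 0.50 around 0.19, and for Grn -0.32 to 0.25 around -0.03. At the level of probe sets 0 of 17 passed, beside 0% of all probe sets, and 1 of 17, Lipa 1423140_at, had an unadjusted p under 0.05, beside 3.33% of all probe sets.

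The rest of the lysosome was described with 8 lists of 92 genes. A singly annotated probe set was found for 73 of them, and 60 were tested. Against wild type 2 of the 60 were higher in knockout embryos and 0 lower, beside 3.32% of all genes called. Their median log2 difference was 0.20, beside -0.01 over all genes, and 42 of the 60 differences were positive. At an unadjusted p under 0.05 there were 24 of 60, beside 19.1% of all genes. The 2 were Ifi30, a thiol reductase that opens disulfide bonds of proteins in lysosomes, and Flcn, folliculin, which acts with Rag GTPases on lysosomes to control mTORC1 and the nuclear entry of TFEB and TFE3.

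Ifi30 read 159.0 and 195.8 in knockout pools, 59.3, 62.5 and 67.0 in heterozygous pools, and 63.4 and 59.2 in wild-type pools. Its log2 difference between knockout and wild type was 1.47 (SE 0.18, 2.77-fold, adjusted p = 0.00269), and 1.44 between knockout and heterozygous embryos (adjusted p = 0.00123). The groups were well apart, although the call against wild type was lost without knockout pool 2 (1.32, adjusted p = 0.0514). Flcn read 193.0 and 227.5 in knockout pools, 67.5, 79.8 and 172.0 in heterozygous pools, and 72.7 and 73.0 in wild-type pools. Heterozygous pool 3 stood near the knockout pools on this probe set. The log2 difference of Flcn was 1.48 between knockout and wild type (SE 0.35, adjusted p = 0.0473) and 1.07 between knockout and heterozygous embryos (adjusted p = 0.0741). Its call was lost without wild-type pool 1, wild-type pool 2, heterozygous pool 2, knockout pool 1 or knockout pool 2, with adjusted p-values up to 0.249. With the mean of all its probe sets in place of the brightest, whose suffix marks probes shared with other transcripts, it was 0.64 (adjusted p = 0.158).

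By list, the 8 other lysosomal glycosidases tested had 0 called against wild type (3 at an unadjusted p under 0.05) and a median log2 difference of -0.03. Neu1, the lysosomal sialidase, stood at 1.16 (adjusted p = 0.0913) and Fuca1, the alpha-fucosidase, at -0.76 (adjusted p = 0.0862), so that the 2 of smallest p pointed opposite ways. The 3 sulfatases had 0 called, also without adjustment, and a median of 0.12, with Arsa, which acts on sulfatide, at 0.22 (adjusted p = 0.615) and Galns at 0.12 (adjusted p = 0.841). The 7 further genes of lipid handling had 0 called (3 without adjustment) and a median of 0.33. Among them Asah1, acid ceramidase, was at 0.56 (adjusted p = 0.0516) and Gm2a, the activator protein that offers gangliosides to beta-hexosaminidase, at 0.64 (adjusted p = 0.0839).

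Among 10 further membrane genes 0 were called (1 without adjustment) and the median was 0.14. Tmem106b, a membrane protein of late endosomes and lysosomes, was at 0.41 (adjusted p = 0.180), and Cd164, a sialomucin of endosomes and lysosomes, at 0.25 (adjusted p = 0.267). The vacuolar ATPase had 0 of 15 subunits and accessory proteins called and a median of 0.32, and 12 of the 15 differences were positive. At an unadjusted p under 0.05 there were 10 of 15, beside 19.1% of all genes. Atp6v1f stood at 0.56 (adjusted p = 0.0540) and Atp6v1c1 at 0.50 (adjusted p = 0.0597), both subunits of the cytosolic sector that splits ATP. The sorting list had 0 of 7 called (1 without adjustment) and a median of 0.16, with Igf2r, the cation-independent mannose 6-phosphate receptor, at 0.44 (adjusted p = 0.0699) and Gga1, a coat adaptor for such receptors, at -0.40 (adjusted p = 0.358). The list of other hydrolases, which holds Ifi30, had 1 of 6 called (5 without adjustment) and a median of 0.54. That of regulators, which holds Flcn, had 1 of 4 called (1 without adjustment) and a median of 0.08. Of the factors named above, Tfeb was under the filter, and Tfe3 was not tested either.

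Between knockout and heterozygous embryos 4 of the 60 were higher and 0 lower, beside 5.86% of all genes called, with a median of 0.24 beside -0.02 over all genes. They were Ifi30, Igf2r, Atp6v1c1 and Tpp1, the lysosomal tripeptidyl peptidase, and Tpp1 was named after its values were seen. Igf2r read 694.9 and 689.2 in knockout pools, 444.5, 491.5 and 416.3 in heterozygous pools, and 523.5 and 497.3 in wild-type pools. Its log2 difference between knockout and heterozygous embryos was 0.62 (adjusted p = 0.00981), lost without knockout pool 1 (adjusted p = 0.0964) and without knockout pool 2 (adjusted p = 0.101), and 0.34 with the mean of its probe sets (adjusted p = 0.0730). That of Tpp1 was 0.66 (adjusted p = 0.0173), lost without either knockout pool (adjusted p = 0.0833 without pool 1 and 0.173 without pool 2) and without heterozygous pool 3 (adjusted p = 0.0528), and it was 0.32 with the mean of its probe sets (adjusted p = 0.256). That of Atp6v1c1 was 0.49 (adjusted p = 0.0358), and its call was kept without heterozygous pool 2 but lost without any 1 of the other 6 pools, with adjusted p-values up to 0.259. The count of 2 against wild type was 5 without heterozygous pool 1, where 417 of all genes were called. Calls against wild type were lost without wild-type pool 2, knockout pool 1 or knockout pool 2. Those against heterozygous embryos, except that of Ifi30, were lost without knockout pool 1 or without knockout pool 2. A single pool then stands for its group, and fewer of all genes passed as well. Between heterozygous and wild-type embryos 0 of the 60 passed, and 1 had an unadjusted p under 0.05, beside 3.54% of all genes.

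**Figure D3:**
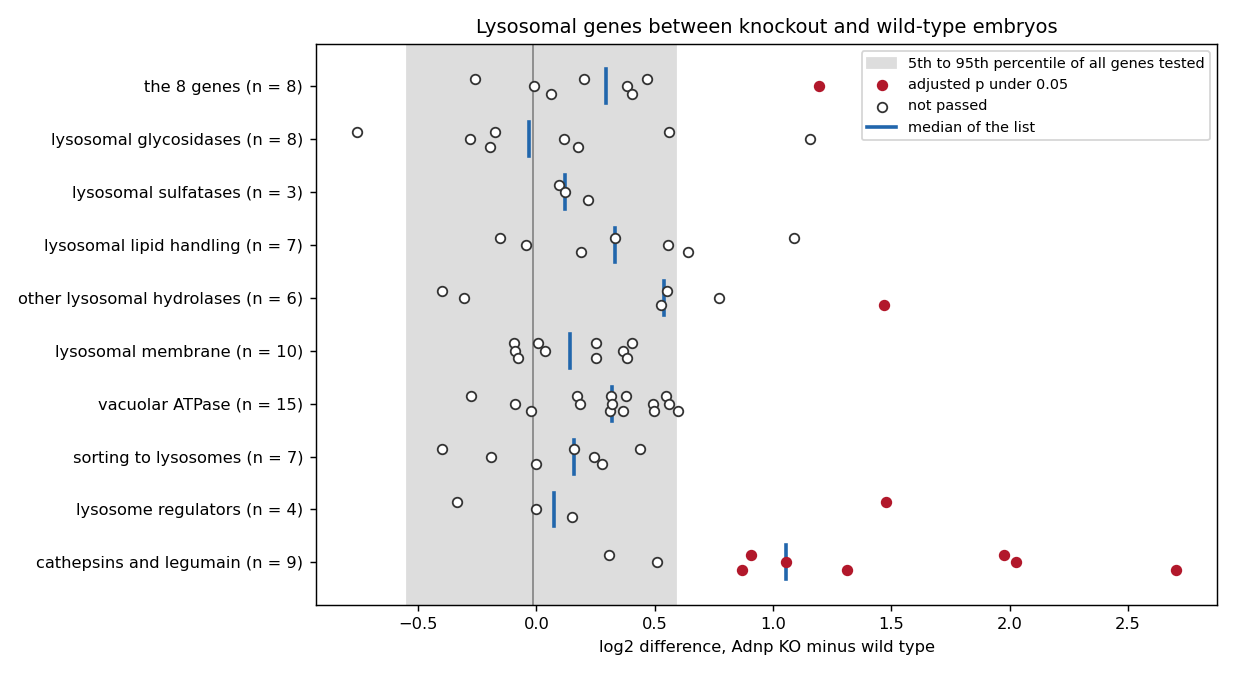
Log2 difference between knockout and wild-type embryos (horizontal axis, 1 point per gene) for the 8 genes, the 8 lysosomal lists and the cathepsins with legumain, with red points for an adjusted p under 0.05, blue lines at list medians and a grey band from the 5th to the 95th percentile of all genes, -0.55 to 0.59. The 8 genes have a median of 0.29, the 15 vacuolar ATPase genes 0.32 and the 9 cathepsin family genes 1.06.

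The cathepsins and legumain, the lysosomal proteases, had larger differences on the same arrays. Of 9 tested, 7 were higher in knockout than in wild-type embryos and 0 lower, beside 1.96% and 1.36% of all genes. Their median log2 difference was 1.06, beside -0.01 over all genes. Ctsh, an aminopeptidase, stood at 2.71 (adjusted p = 0.00193), Ctsc, the dipeptidyl peptidase that activates other proteases, at 2.03 (adjusted p = 0.000497), and Lgmn, an asparaginyl endopeptidase, at 1.98 (adjusted p = 0.0201). Hexa, at 1.20, lay above the median of that family, and the other 7 of the 8 genes, at -0.26 to 0.47, lay below it. No test was made of the difference between the families. Some of the 7 calls were lost without wild-type pool 2 and without knockout pool 2. A single pool then stands for its group, and fewer of all genes passed as well.

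Markers of visceral endoderm were also higher in the knockout pools. Of 19 such markers 18 had a probe set with 1 symbol, 15 were tested and 0 were at 0 on all arrays. Their summed signal was 12061 and 14390 in knockout pools, 939.9, 2148.3 and 1243.2 in heterozygous pools, and 3355.3 and 877.1 in wild-type pools. Of the 15 tested, 10 were higher in knockout than in wild-type embryos and 13 higher than in heterozygous embryos. Over all genes these shares were 1.96% and 3.11%. Apoa1, an apolipoprotein, differed by 4.91 on the log2 scale between knockout and wild type (adjusted p = 0.0171) and Cubn, an endocytic receptor, by 4.08 (adjusted p = 0.00365). The part of visceral endoderm RNA in the higher Hexa, Lamp1 and Lamp2 signals was not tested, and in the knockout pools genotype and visceral endoderm signal cannot be told apart.

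Among the 5 pools that were not knockout, the summed visceral endoderm signal spanned 877.1 to 3355.3. Hexa read 185.1, 134.3 and 164.2 in heterozygous pools with sums of 939.9, 1243.2 and 2148.3. It read 132.3 and 159.6 in wild-type pools with sums of 877.1 and 3355.3. Lamp1 read 1065.7 and 1065.6 in the wild-type pools with sums of 3355.3 and 877.1. In the heterozygous pools Lamp1 was lowest, at 990.4, where the sum was 939.9, and read 1122.5 at 1243.2 and 1108.9 at 2148.3. Lamp2 read 296.9, 299.9 and 326.7 in heterozygous pools with sums of 939.9, 1243.2 and 2148.3, and 298.6 and 334.6 in wild-type pools with sums of 877.1 and 3355.3. Lamp2 was highest in the 2 of these 5 pools with the highest sums. Hexa was highest in heterozygous pool 1, at a low sum, and lowest in wild-type pool 2, at the lowest sum. A relation of these genes to the sums was not tested, and the knockout sums, 12061 and 14390, lie outside the span of these pools.

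**Figure D4:**
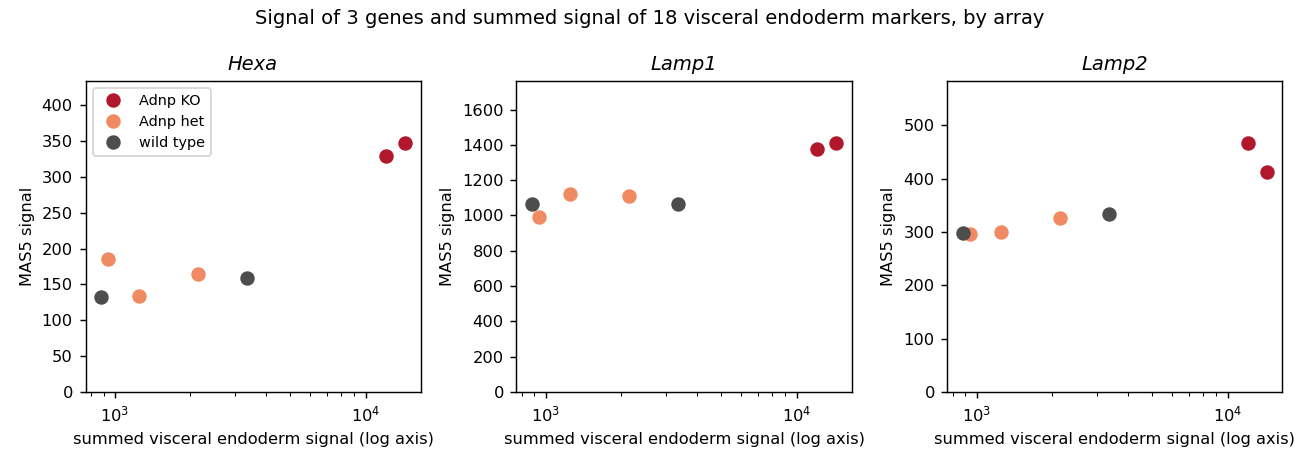
MAS5 signal of Hexa, Lamp1 and Lamp2 (vertical axes, linear from 0) against the summed signal of 18 visceral endoderm markers (horizontal axis, log scale), 1 point per array in knockout (KO), heterozygous (het) and wild-type embryos. The knockout arrays, at sums of 12061 and 14390, are highest in each panel, and the other 5 arrays spread over sums of 877.1 to 3355.3 with Hexa between 132.3 and 185.1.

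Markers of macrophages, which are rich in lysosomes, were low on all arrays. Of 20 such markers 18 were under the filter and 0 were at 0 on all arrays, and their summed signal was 482.4 and 490.9 in knockout pools, 355.8, 410.8 and 453.0 in heterozygous pools, and 345.6 and 427.3 in wild-type pools. The knockout sums were the highest, by a small margin. Among the untested markers under the filter, Mrc1, Fcgr3, Tyrobp, Fcer1g and Adgre1 read higher in both knockout pools than in all others. None of the markers read lower in both knockout pools than in all others. Among the genes tested, 14.2% lay above and 16.5% below all others in this way. Set against both wild-type pools only, Csf1r and Cx3cr1 also read higher in both knockout pools, and Itgam, Aif1 and C1qb lower. The 2 markers tested were not called between knockout and wild type, Csf1r, the receptor for colony-stimulating factor, at 0.38 (adjusted p = 0.472) and Laptm5, a lysosomal protein of blood cells, at -0.12 (adjusted p = 0.929). Sex-linked markers set the wild-type pools apart from all others, while knockout and heterozygous pools overlapped. The summed signal of the Y-linked genes was 144.8 and 207.5 in knockout pools, 117.6, 187.5 and 97.8 in heterozygous pools, and 32.9 and 21.4 in wild-type pools, and Xist read 510.3 and 58.8 in knockout, 595.0, 62.0 and 548.2 in heterozygous, and 801.0 and 844.4 in wild-type pools. The wild-type pools thus had the lowest Y-linked and the highest Xist signals. In comparisons with wild type, genotype and sex cannot be told apart for any gene. The part of sex was not tested, also not for Lamp2 and Gla, which are X-linked. Of 9 markers of the embryo proper all 9 passed the filter, and 2 were lower in knockout embryos in each knockout comparison. Of all genes, 1.36% were called lower against wild type and 2.76% against heterozygous embryos. Meox1, a homeobox gene of somites, differed by -1.23 on the log2 scale between knockout and wild type (adjusted p = 0.00622) and Sox2, a transcription factor of neural progenitors, by -0.79 (adjusted p = 0.00641).

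The 8 genes did not share 1 pattern over the pools. After each was set to mean 0 and SD 1, their average was highest in knockout pool 1, at 0.87, followed by knockout pool 2 at 0.37 and heterozygous pool 1 at 0.21, and it was lowest in wild-type pool 1, at -0.51. The genes outside the 8 whose log2 signal followed that average most closely over the 7 arrays were Gas5 (Pearson's r 0.992), Rock1 (0.978), Rnf126 (0.974), Dlg1 (0.969) and Nup85 (0.966). None of these 5 passed between knockout and wild type, with log2 differences of 0.23 to 0.45 and adjusted p-values of 0.0819 to 0.290. The arrays share their genotype groups, and the r values are descriptions.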

How the data were processed

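The authors made the deposited intensities, 1 linear value per probe set and array, with MAS5 (per the submitters' processing notes). The sources used here give no MAS5 version, scaling target or detection calls. The values show scaling per array (mean without 2% at each end, 150.0 to 150.1), so changes are relative to the whole array. Of 22690 probe sets 64 were controls, and 20380 had 1 symbol in the platform annotation. Each gene was read from the probe set with its highest mean. Means under the 40th percentile (38.1 as signal plus 3.8) were left out. The pseudocount of 3.8 is the 10th percentile of all values.

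Differences were tested with limma 3.58.1 in R 4.3.3 (lmFit, eBayes with an intensity trend), with genotype as the only term, 4 residual and 6.19 prior degrees of freedom. P-values are two-sided, with Benjamini-Hochberg adjustment over 8019 genes, or over 12528 probe sets in a second fit of single probe sets. The scripts were tested on simulated data. The genes and lists were chosen with earlier results of these data known. Named genes were all 8 with each probe set, and of each list up to 3 called against wild type with the largest difference or, where 0 were called, the 2 of smallest p, beside the 5 most alike. Nothing shows that same-numbered pools belong together.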

Additional observations from a re-analysis of the deposited data

How the results depend on the processing

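Precision is limited by 2 or 3 arrays per group and, for Gla, by signals near the filter. Each of the 8 genes had 16 to 19 alternatives. Hexa stayed past the threshold in 17 of 19 in each knockout comparison. Lamp1 lost its call against heterozygous embryos in 12 of 19 and Lamp2 in 8 of 19, and no alternative gave a call between heterozygous and wild-type embryos. Causes were not tested. The alternatives for the lysosomal lists and the cathepsins were chosen after seeing the data.

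Of all genes, the count against wild type (266) was 161 with no filter, 174 with no intensity trend and 514 with array weights, and 36 to 417 with 1 array left out. Against heterozygous embryos (470) it was 306 with no filter, 262 with no trend and 272 with the probe set of largest variance, and 67 to 545 with 1 array left out. Of the 8 genes, the call of Hexa against wild type was lost without wild-type pool 2 or knockout pool 2. A single pool then stands for its group. With array weights 3 of the 8 were called against wild type (Hexa, Lamp1, Lamp2), beside 514 of all genes. With the compared genotypes alone 3 were called (Hexa, Npc2, Lamp1), beside 322 of all genes. Against heterozygous embryos 1 was called with no trend and 1 with the probe set of largest variance, and 0 to 3 with 1 array left out. Of the 60 list genes, the count against wild type (2) was 1 with no filter, 10 with array weights, 4 with the mean of a gene's probe sets, 1 with the probe set of largest variance, 5 with the compared genotypes alone and 0 to 5 with 1 array left out. Against heterozygous embryos (4) it was 8 with array weights and 1 to 5 with 1 array left out. Of the 17 probe sets, 2 were called against wild type with array weights and 0 to 2 with 1 array left out. Against heterozygous embryos 4 were called with a pseudocount of 16, 1 with no filter, 1 with medians set equal, 5 with array weights and 0 to 3 with 1 array left out. Shares of all probe sets at these settings are not given here. The cathepsin count against wild type (7) was 4 with no trend.

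The deviations of same-numbered pools from their group means had correlations of -0.29 to 0.005. In a group of 2 arrays the deviations mirror each other, so these values are not independent and cannot exclude a shared litter or batch. With the replicate number as a block, 72 genes were called against wild type and 76 against heterozygous embryos. Of the 8 genes 1, Hexa, was called in each (log2 difference 1.20, adjusted p = 0.0232, and 0.94, adjusted p = 0.0484), and 2 of the list genes against heterozygous embryos. Of the probe sets 0 were called in either comparison. Under the block the log2 differences of Npc2 between knockout and heterozygous embryos (-0.0015), of Lamp1 between heterozygous and wild type (-0.024) and of Lamp2 1434503_s_at between heterozygous and wild type (0.32) changed sign.

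The other changes of sign were in uncalled differences. Lipa between knockout and heterozygous embryos was -0.0017 with array weights, -0.57 with the mean of its probe sets and -1.43 with its probe set of largest variance. Grn between knockout and wild type was -0.20 with its probe set of largest variance, and Psap between heterozygous and wild type -0.035 with array weights. With 1 array left out, the differences between knockout and wild type spanned -0.26 to 0.24 for Gla, -0.037 to 0.16 for Grn, -0.16 to 0.41 for Lamp2 1416343_a_at and -0.49 to 0.83 for Lipa 1423140_at. Between knockout and heterozygous embryos they spanned -0.36 to 0.14 for Gla, -0.15 to 0.17 for Lipa, -0.0015 to 0.34 for Npc2 and -0.015 to 0.15 for Grn 1448148_at. Between heterozygous and wild type they spanned -0.064 to 0.22 for Gla, -0.21 to 0.20 for Psap, -0.13 to 0.064 for Grn, -0.024 to 0.066 for Lamp1, -0.12 to 0.042 for Lamp2, -0.28 to 0.33 for Psap 1421813_a_at, -0.50 to 0.33 for Lamp2 1434503_s_at and -0.13 to 0.15 for Grn 1456567_x_at.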
